A study of Mus musculus with 2 samples.

Results

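The histone genes comprised 87 of the 55536 annotated gene entries. They were chosen by symbol alone: names that start with Hist1h to Hist4h, H2af, H3f3 or H1f, without the 4 symbols marked "-ps". Of the 87, 69 were replication-dependent (Hist) genes and 17 were replacement histone genes. The last was H3f3aos, an antisense RNA at the H3f3a locus, with 17 and 7 counts in the 2 libraries, and it was kept out of both classes. The annotation lists Hist1h2aj, Hist1h2al, H3f3c and H2afy3 as pseudogenes.

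The study measured polyadenylated RNA of macrophages that were grown from bone marrow of C57BL/6J mice, in 2 libraries of 1 group. The cells received Lipid A, the Tlr4-binding part of lipopolysaccharide, at 100 ng/mL for 12 h, were kept without it for 12 h, and then had the same dose again for 30 min. The treatment field of the labels instead reads lipoprotein A, and untreated cells were not analysed here. Age and sex are not given, and the libraries carry different biosample names but 1 donor record, so the spread between them may be technical. Of 10 macrophage markers 10 were detected, and 0 of 5 erythroid markers were. Markers of other cells were detected too, 6 of 6 for stroma, 2 of 9 for neutrophils and 1 of 5 each for T and B cells.

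Replication-dependent histone genes are transcribed in S phase, lie in clusters, mostly lack introns, and make messenger RNAs that end just after a conserved stem-loop in place of a poly(A) tail. Slbp binds that stem-loop. Replacement histone genes are transcribed throughout the cell cycle, mostly contain introns and make polyadenylated messenger RNAs, so a poly(A) selection keeps them and passes over messages that end at the stem-loop.

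Replacement histones held most of the histone RNA in these libraries, and the replication-dependent class was measurable in both. The level is given as TPM, an abundance per effective length that sums to the same total in each library, in the alignment-derived gene table unless stated. Replication-dependent genes summed to 511 TPM in replicate 1 and 976 TPM in replicate 2 (743 ± 329, SD, n = 2). Replacement genes summed to 1737 and 2158 TPM (1948 ± 298, SD, n = 2). The replication-dependent class therefore made up 22.7% and 31.1% of histone TPM (26.9% ± 5.95, SD, n = 2). Replacement genes were the higher class in both libraries, and the ranges of the 2 sums do not overlap.

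A gene was called detected at 1 TPM or more in both libraries, which 48.7% of 22028 protein-coding genes were. Of the replication-dependent genes 15 of 69 were detected, and of the replacement genes 10 of 17. Among protein-coding members alone 15 and 9 were detected, since the 10 include the pseudogene H3f3c. In the replication-dependent class 19 genes had 0 counts in both libraries after the expected counts were rounded. Some of them held a fraction of a count before rounding. Total counts were 41938439 and 30780685, so a count of 0 allows 3 counts, or 0.0715 and 0.0975 CPM, which is counts scaled to library size. The histone genes took 0.168% and 0.243% of the counts. Because histone transcripts are short, those 3 counts amount to at most 1.16 and 1.76 TPM for the 19 genes. For 16 of the 54 replication-dependent genes that were not detected, 3 counts would already reach 1 TPM in at least 1 library, so 1 TPM was not resolved there. Genes just above the threshold were Hist3h2ba at 1.63 and 1.00 TPM, Hist1h4h at 1.38 and 5.07 TPM and Hist2h3c1 at 1.41 and 1.92 TPM. Just below it were Hist1h2bj at 0.93 and 4.21 TPM, Hist1h2ae at 0.79 and 1.59 TPM and Hist1h2bq at 0.83 and 0.70 TPM.

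**Figure D1:**
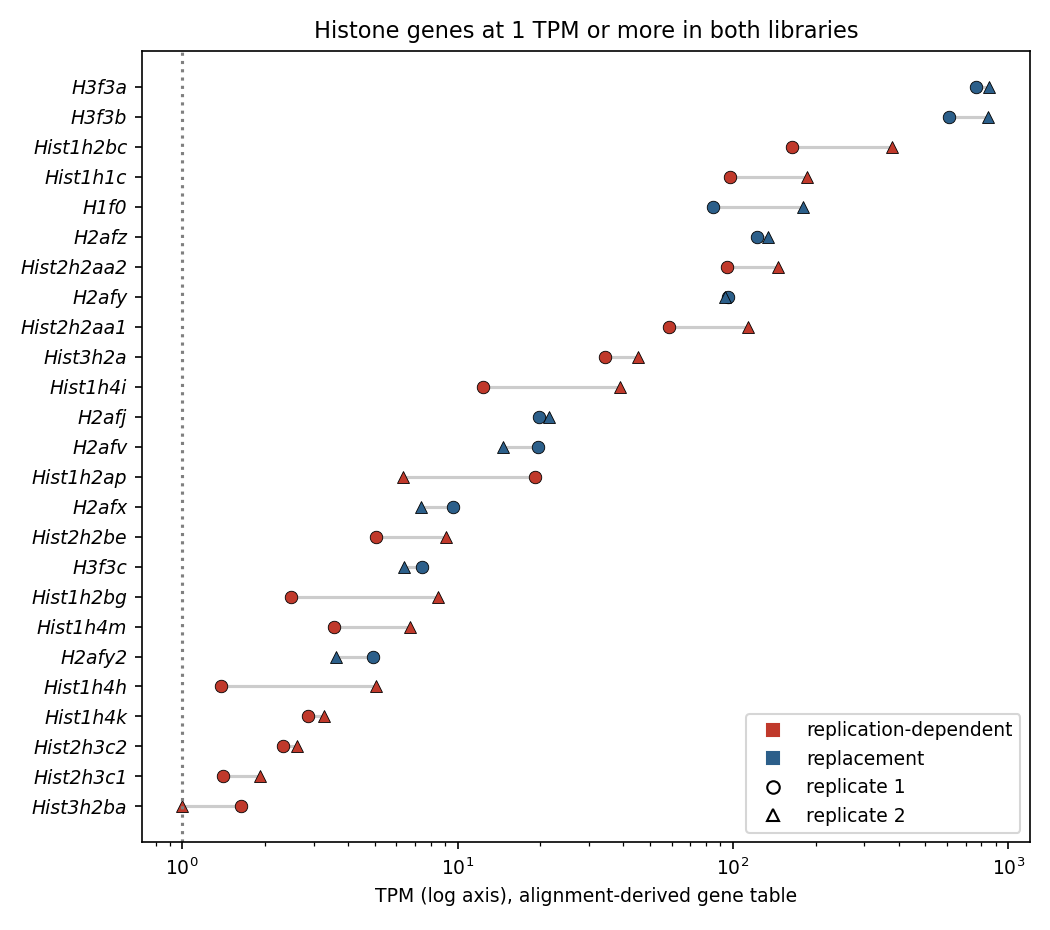
TPM (log axis) of the 25 histone genes at 1 TPM or more in both libraries. Circles are replicate 1, triangles are replicate 2, red is replication-dependent and blue is replacement. H3f3a and H3f3b lie highest, at 609 to 855 TPM, and the dotted line marks 1 TPM.

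H3 was the most abundant family and came almost wholly from replacement genes. H3f3a and H3f3b, which both encode H3.3, the form of H3 that is deposited outside replication, led all histones. H3f3a stood at 763 and 855 TPM, and H3f3b at 609 and 842 TPM. Their ranges overlap, although H3f3a was the higher gene in each library in TPM. In CPM, which is not divided by length, H3f3b was the higher gene in each, at 690 and 977 against 423 and 492. The 12 replication-dependent H3 genes summed to 4.77 and 6.55 TPM, or 0.345% and 0.383% of H3 TPM. The highest of them was Hist2h3c2, at 2.32 and 2.61 TPM. H3f3c, annotated as a pseudogene, was listed at 7.43 and 6.41 TPM in this table and at 0.27 and 0 TPM in the FASTQ-derived table. Of its 31-base words 79.3% also occur in H3f3a, so its value cannot be separated from that gene.

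H4 has no member among the replacement genes, and it was the lowest family. The 13 H4 genes summed to 22.5 and 59.9 TPM, which is 1.62% and 3.50% of the H3 sum in the same library. Hist1h4i gave 12.3 and 38.8 TPM of this, 54.9% and 64.8% of the family. Hist1h4m followed at 3.56 and 6.74 TPM. H3 and H4 pair in the nucleosome in equal amounts as proteins, but their polyadenylated RNAs lay more than an order of magnitude apart in both libraries.

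Under the symbol rule H2B likewise consists of Hist genes only, and 1 gene carried its level. Hist1h2bc stood at 164 and 379 TPM and made up 92.9% and 93.0% of H2B TPM. It was the highest replication-dependent gene, with 32.1% and 38.8% of that class. Hist2h2be stood at 5.06 and 9.10 TPM and Hist1h2bg at 2.49 and 8.47 TPM. Of 18 H2B genes 4 were detected.

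H2A was divided between the classes, with replication-dependent genes at 43.5% and 53.4% of the family. Their summed level was 209 and 315 TPM, against 272 and 275 TPM for the replacement genes, so the order of the classes differed between the libraries in this table. In the FASTQ-derived table replacement genes were the higher class in both, with 157 and 218 TPM for the replication-dependent and 238 and 230 TPM for the replacement genes, and in CPM they were too, with 75.6 and 110 against 190 and 194. The near-identical pair Hist2h2aa1 and Hist2h2aa2 supplied 153 and 260 TPM of it together. Hist3h2a added 34.3 and 45.4 TPM. Hist1h2ap stood at 19.1 and 6.32 TPM and was the only one of these with its higher value in replicate 1. Among the replacement genes H2afz, which encodes the promoter-associated variant H2A.Z, stood at 122 and 135 TPM. H2afy, which encodes macroH2A1, a variant with a large globular domain, stood at 95.9 and 93.4 TPM. H2afj was at 19.8 and 21.4 TPM, and H2afv, which encodes the second form of H2A.Z, was at 19.6 and 14.6 TPM. H2afx, whose protein is phosphorylated at DNA breaks, was at 9.65 and 7.39 TPM. H2afy2, which encodes macroH2A2, was at 4.94 and 3.63 TPM. The germline variants H2afb1, H2afb2 and H2afb3 and the pseudogene H2afy3 were listed at 0.

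For the linker histone H1, which binds DNA between nucleosomes, 1 gene of each class held nearly everything. Hist1h1c, which encodes H1.2, stood at 97.4 and 186 TPM, 53.0% and 50.6% of the family. H1f0, which encodes H1.0, the linker histone of resting and differentiated cells, stood at 84.9 and 179 TPM, 46.2% and 48.7%. Hist1h1c was the higher gene in both libraries in TPM, by less than the distance between the libraries. In CPM H1f0 was the higher gene in both, at 101 and 220 against 83.8 and 164. H1fx was at 0.79 and 0.96 TPM. The oocyte gene H1foo and the spermatid gene H1fnt were listed at 0.

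**Figure D2:**
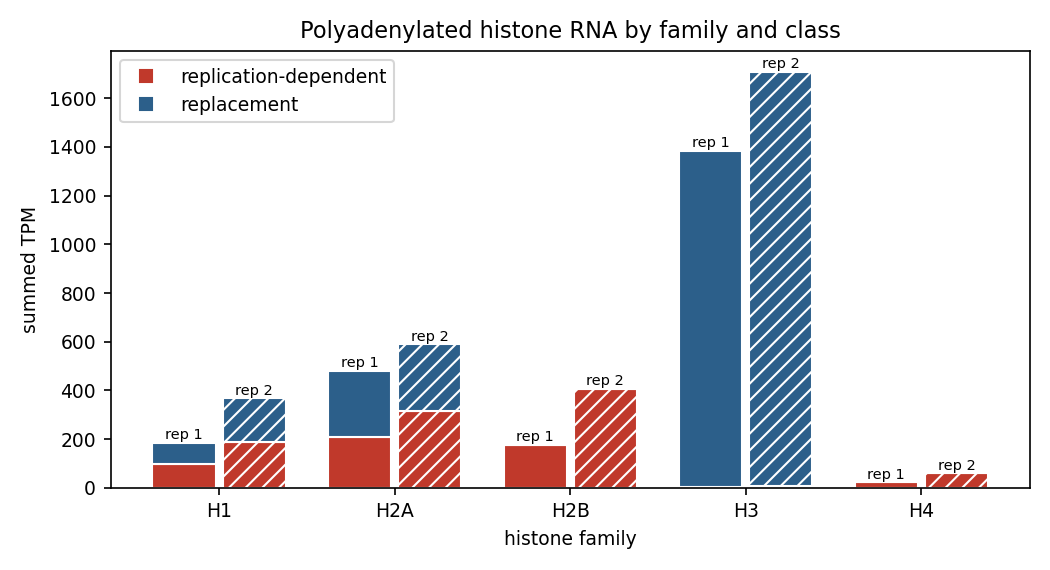
Summed TPM by histone family, split into replication-dependent (red) and replacement (blue) genes, with a plain bar for replicate 1 and a hatched bar for replicate 2. H3 is almost all replacement (1384 and 1710 TPM in all), and H1 and H2A are divided between the classes. H2B and H4 are all replication-dependent, since the symbol rule takes in no replacement gene of either.

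The replication-dependent signal was concentrated in few genes. Hist1h2bc, Hist1h1c, Hist2h2aa2, Hist2h2aa1 and Hist3h2a made up 87.9% and 89.1% of the class. The 10 highest genes made up 96.2% in each library, and the other 59 summed to 19.2 and 36.7 TPM. By locus, 8 of 56 genes of the Hist1 cluster were detected, 5 of 10 of Hist2, 2 of 2 of Hist3 and 0 of 1 of Hist4. Over the 24 neighbouring pairs in the order of mean levels of all 25 detected histone genes, 5 pairs had ranges that did not overlap, and 10 kept their order in both libraries.

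The stem-loop sits at the 3′ end of the annotated transcript when the model stops there, and inside it when the model runs on. The sites of the genes that carried the signal were read from the GENCODE M21 transcripts (mm10) with the 16-letter motif in capitals and up to 5 flanking bases. They are shown because the letters are nearly the same in all of them while the length that follows is not.
Hist1h1c (chr13:23739507-23739532, plus strand, 840 bases follow): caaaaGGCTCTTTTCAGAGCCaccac
Hist3h2a (chr11:58955167-58955192, plus strand, 1643 bases follow): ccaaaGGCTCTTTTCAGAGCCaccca
Hist2h2aa1 (chr3:96246027-96246052, plus strand, 35 bases follow): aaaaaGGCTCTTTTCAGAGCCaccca
Hist2h2aa2 (chr3:96239779-96239804, minus strand, 35 bases follow): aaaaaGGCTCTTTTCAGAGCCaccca
Hist1h4i (chr13:22040961-22040986, minus strand, 330 bases follow): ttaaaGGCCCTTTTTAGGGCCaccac
Hist1h2ap (chr13:21833026-21833049, minus strand, 3 bases follow): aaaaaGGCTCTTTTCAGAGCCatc
H2afx (chr9:44335235-44335260, plus strand, 822 bases follow): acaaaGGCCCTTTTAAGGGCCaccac

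The motif searched was the histone 3′ stem-loop consensus, on the sense strand, with 3 of its 16 letters free. An exact match occurred in 49 of 141767 annotated transcripts (0.0346%), from 47 genes of which 43 were among the 87. The others were H2bfm, an H2B-family gene outside the symbol rule, Trim17, Gm20634 and Gm44648. With up to 1 mismatch, 44 of 69 replication-dependent genes held it in an annotated model. The 25 models of this class with 1 exon and no match had a median length of 393 bases, against 619 for models with a match. A model that stops before the site cannot show it, so a missing match does not mean that the gene lacks the stem-loop. H2afx was the only replacement gene of 17 with a match. The form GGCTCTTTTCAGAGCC was in 3 H1, 10 H2A, 8 H2B and 5 H3 genes of the replication-dependent class. The 10 H4 genes with a match had another stem, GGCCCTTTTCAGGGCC in 7, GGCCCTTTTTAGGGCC in 2 and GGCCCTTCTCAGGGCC in 1. H2afx, with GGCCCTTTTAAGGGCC, has the stem of the H4 genes.

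In the annotation, all but 3 of the 77 replication-dependent models run on past the stem-loop or do not contain it. That most of the signal lay in such models therefore follows largely from the annotation. The FASTQ-derived transcript table was used here, and the alignment-derived one gave 61.4% and 58.2% for the next value. Transcripts with more than 20 bases after the motif held 60.1% and 57.3% of replication-dependent TPM (58.7% ± 2.03, SD, n = 2), over 43 of 77 transcripts. Transcripts without the motif held 35.8% and 41.7%, over 31. Models that end within 20 bases of the motif were 3, Hist1h2ap-201, Hist1h4m-201 and Hist1h2ab-201, and they held 4.05% and 1.04%. With more than 50 bases as the limit the share past the motif was 31.9% (mean of the 2 libraries), since the Hist2h2aa1 and Hist2h2aa2 models end after 35 bases. There are 77 models for 69 genes, so most genes have 1 model and these shares follow the gene levels. The tables assign reads to annotated models, and where each RNA ended was not measured.

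**Figure D3:**
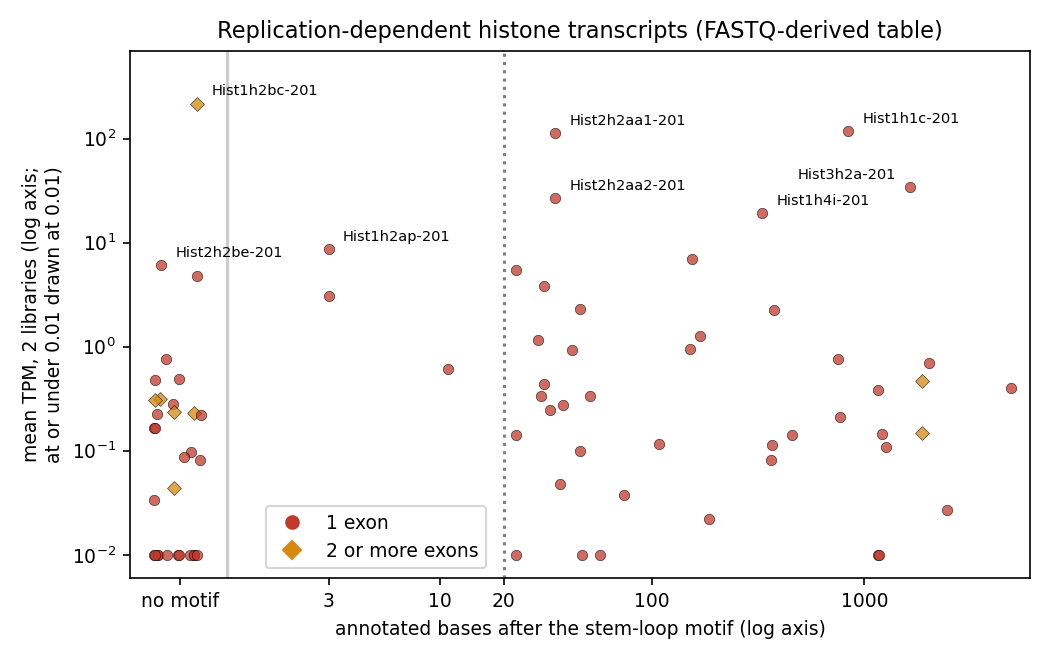
Mean TPM over the 2 libraries (log axis, FASTQ-derived table) of 77 replication-dependent transcripts against the annotated bases after the stem-loop motif (log axis). Transcripts without the motif are at the left with arbitrary sideways spread, diamonds are spliced models, and the dotted line marks 20 bases; Hist1h2bc-201 is the highest and has no motif.

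Hist1h2bc, the leading replication-dependent gene, has only a spliced model in the annotation, so all its reads were assigned to it. Hist1h2bc-201 joins chr13:23684199-23684621 to chr13:23692176-23692908 (mm10, plus strand) over an intron of 7554 bases. The stem-loop motif is not in this transcript. It was at 138 and 297 TPM in the FASTQ-derived table. Spliced models without the motif, 6 transcripts of Hist1h2bc, Hist1h2bp, Hist1h2bq and Hist1h2br, held 33.1% and 39.5% of replication-dependent TPM, nearly all of it Hist1h2bc-201. Hist2h2be-201 has 1 exon of 2620 bases and lacks the motif too.

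A poly(A) signal, AATAAA or ATTAAA on the sense strand, was looked for in the last 50 bases of each model. It was present in 33.7% of all annotated transcripts, in 21 of 77 replication-dependent and in 15 of 45 replacement transcripts. The following stretches around it are shown, signal in capitals, because they belong to the replication-dependent genes with the longest stretch after the stem-loop among the 6 highest and to the spliced Hist1h2bc.
Hist1h1c (chr13:23740330-23740359, plus strand): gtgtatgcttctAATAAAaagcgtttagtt
Hist3h2a (chr11:58956785-58956814, plus strand): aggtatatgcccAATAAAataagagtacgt
Hist1h4i (chr13:22040639-22040668, minus strand): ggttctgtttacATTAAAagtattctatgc
Hist1h2bc (chr13:23692450-23692479, plus strand): tgatgtatatatAATAAAtgtcatgtaaag
In Hist1h1c-201 the signal lies 20 bases before the annotated end, in Hist3h2a-201 28 bases and in Hist1h4i-201 15 bases. The Hist1h2bc signal is the only AATAAA or ATTAAA in its transcript and lies in the second exon, 441 bases before the annotated end. Of the 6 replication-dependent transcripts at 1 TPM or more with an end signal, the highest were Hist1h1c-201 at 84.1 and 150 TPM, Hist3h2a-201 at 30.6 and 37.5 TPM and Hist1h4i-201 at 10.1 and 28.6 TPM. Hist2h2aa1-201 and Hist2h2aa2-201 had no such signal in their last 50 bases.

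The transcript models of the leading replacement genes differed in how the level was divided. H3f3a-201 held 67.7% and 67.4% of H3f3a TPM, H3f3a-207 held 21.9% and 21.4%, and the longer H3f3a-205, which ends after an AATAAA, held 9.52% and 10.2%. H3f3b-201 held 94.05% and 92.6% of H3f3b. H2afz-201 held 99.3% and 97.7% of H2afz. H2afy was split, with H2afy-201 at 49.8% and 51.5% and H2afy-204 at 32.6% and 30.4%. For H2afv the leading model differed between the libraries, with H2afv-201 at 60.7% and 44.7% and H2afv-202 at 39.3% and 55.3%.

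Many replication-dependent genes start back to back. In all, 14 pairs start within 1000 bases of each other on opposite strands. Their starts lie 176 to 660 bases apart (median 259.5), 13 of them join an H2A and an H2B gene, and both genes of such a pair read outward from 1 shared stretch. In 0 of 14 pairs were both genes detected, in 4 pairs 1 gene was, and in 10 neither was. Since only 15 of 69 replication-dependent genes were detected in all, nothing is read from the count of 0. At Hist1h2ac and Hist1h2bc, 251 bases apart, the H2A gene stood at 0.34 and 1.27 TPM and the H2B gene at 164 and 379 TPM. In the Hist2h2ac and Hist2h2be pair the H2A gene was listed at 0 and the H2B gene at 5.06 and 9.10 TPM. Hist1h2ae stood at 0.79 and 1.59 TPM beside Hist1h2bg at 2.49 and 8.47 TPM. The pair of Hist1h2ap, at 19.1 and 6.32 TPM, and Hist1h2br, at 0 and 0.20 TPM, was the only one of the 4 in which the H2A gene was the detected one.

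**Figure D4:**
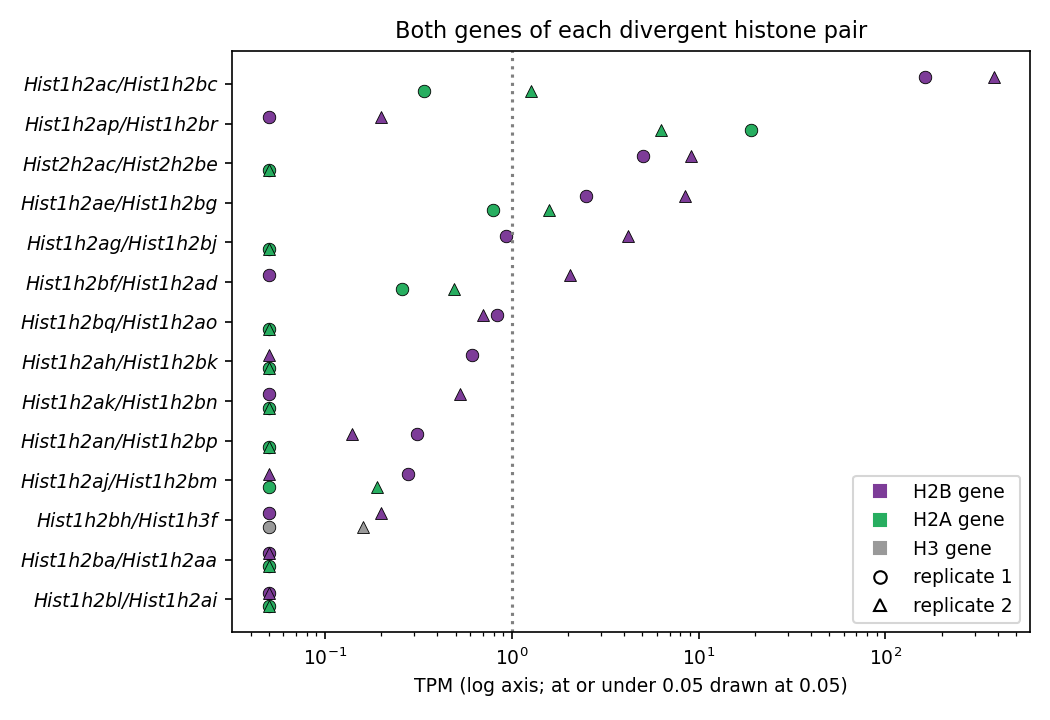
TPM (log axis) of both genes of the 14 divergent pairs; circles are replicate 1 and triangles replicate 2, purple is the H2B gene, green the H2A gene and grey the H3 gene. Values at or under 0.05 are drawn at 0.05; Hist1h2bc, at 164 and 379 TPM, lies far from its partner Hist1h2ac.

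The stretch between Hist1h2ac and Hist1h2bc is shown with 2 other promoters, to set the letters beside these levels. Each is the 250 bases before the RefSeq start (build GRCm38.p6), 5′ to 3′ on the strand of the named gene. Capitals mark the TATA box, searched as TATAAA, which positions the start. They also mark the CCAAT box by those letters. The octamer, a site for Oct factors, was searched as ATTTGCAT. The H1 box, named for linker histone promoters, was searched as AAACACA. Each was searched as written and as its reverse complement.
Hist1h2ac, read toward Hist1h2ac (chr13:23683960-23684209, minus strand): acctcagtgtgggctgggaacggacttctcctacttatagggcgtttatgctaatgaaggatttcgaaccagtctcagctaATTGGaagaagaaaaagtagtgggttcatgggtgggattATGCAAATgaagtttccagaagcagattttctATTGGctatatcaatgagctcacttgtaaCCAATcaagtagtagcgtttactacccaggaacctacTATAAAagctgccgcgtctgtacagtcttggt
Hist1h1c (chr13:23738557-23738806, plus strand): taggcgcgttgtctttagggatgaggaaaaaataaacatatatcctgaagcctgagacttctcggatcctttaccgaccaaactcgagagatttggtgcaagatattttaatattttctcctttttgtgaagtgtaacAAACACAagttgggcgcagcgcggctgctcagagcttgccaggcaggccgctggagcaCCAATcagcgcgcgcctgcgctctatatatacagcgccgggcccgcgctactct
H3f3b (chr11:116024505-116024754, minus strand): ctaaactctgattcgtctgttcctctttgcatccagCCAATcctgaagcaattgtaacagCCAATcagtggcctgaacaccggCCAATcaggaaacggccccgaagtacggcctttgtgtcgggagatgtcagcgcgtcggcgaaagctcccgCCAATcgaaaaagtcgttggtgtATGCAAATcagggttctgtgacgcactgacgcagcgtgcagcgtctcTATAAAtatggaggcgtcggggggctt

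The start of Hist1h2bc lies inside the stretch shown for Hist1h2ac, which holds 1 TATAAA, 3 CCAAT and 1 octamer over both strands. The Hist1h1c stretch holds 1 H1 box and 1 CCAAT. The H3f3b stretch holds 1 TATAAA, 4 CCAAT and 1 octamer, and it was the only one of the replacement promoters in the table with TATAAA or with the octamer.

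Over 300-base windows, from 250 bases before to 50 after each RefSeq start, 62 of 69 replication-dependent and 15 of 17 replacement genes were matched by name. Both strands were searched, and the motifs may overlap one another. TATAAA was in 56.5% of the replication-dependent and 6.67% of the replacement promoters, against 13.6% of all 32851 promoters of that length. CCAAT was in 85.5% and 66.7%, against 37.4%. In the replication-dependent class every H1, H2A, H2B and H3 promoter in the table held CCAAT, but 3 of 12 H4 promoters did. The octamer was in 38.9% of 18 H2A and 43.8% of 16 H2B promoters, in 0 of the H1, H3 and H4 promoters of that class, and in 1.74% of all. The H1 box was in 5 of 6 replication-dependent H1 promoters and in 7.18% of all. A match describes letters in a window and not binding.

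Between the 2 libraries the replication-dependent genes lay mostly higher in replicate 2, while most replacement genes lay close together. The ratio is replicate 2 over replicate 1 on the log2 scale, from TMM-scaled counts with 0.5 added, and its exact Clopper-Pearson 95% interval covers counting error only. With 1 library on each side there is no test of this difference. A gene needed 20 counts in each library, which 14 of 69 replication-dependent and 9 of 17 replacement genes had. Of the 14, 13 had a ratio above 0, against 46.4% of all 12471 genes with 20 counts, and the median was 0.96. Of the 9 replacement genes 7 were above 0, with a median of 0.07. The median of all 12471 genes was -0.02. At least 2-fold higher in replicate 2 were 6 of the 14 and 1 of the 9, where 1.94% of all genes were. At least 2-fold lower were 1 of the 14 and 0 of the 9, where 0.521% of all genes were.

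Hist1h2bc had 4062 and 7019 counts, a log2 ratio of 1.24 (1.19 to 1.30). Hist1h1c had 3516 and 5057 counts, a ratio of 0.98 (0.92 to 1.04). H1f0 had 4241 and 6760 counts, a ratio of 1.13 (1.07 to 1.18), and was the only replacement gene at least 2-fold higher. Hist1h4i, with 158 and 364 counts, had a ratio of 1.65 (1.38 to 1.94). The highest ratios rested on few counts: Hist1h2be had 23.3 and 69.5 counts and a ratio of 2.03 (1.36 to 2.81), and Hist1h2ac had 21.1 and 59.5 counts and a ratio of 1.92 (1.20 to 2.74). All 6 genes at least 2-fold higher lie in the Hist1 cluster, 6 of its 8 genes with 20 counts, whereas 0 of the 5 such genes of Hist2 and 0 of the 1 of Hist3 were. Of the Hist2 genes, Hist2h2aa1, at 0.94 (0.77 to 1.10), and Hist2h2be, at 0.90 (0.69 to 1.11), had intervals that reach past 2-fold, and the difference between the clusters was not tested. Hist3h2a had the ratio 0.45 (0.36 to 0.55) and Hist2h3c2 had 0.19 (-0.44 to 0.82), so the interval of the latter includes 0.

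In the other direction stood Hist1h2ap, with 117 and 27.1 counts and a ratio of -1.65 (-2.32 to -1.05). It is the highest of the 3 genes whose model ends at the stem-loop, and 93.4% of its 31-base words also occur in Hist1h2ao. H3f3a had a ratio of 0.22 (0.19 to 0.25), H3f3b 0.51 (0.49 to 0.53) and H2afz 0.15 (0.07 to 0.23). H2afy, at 0.01 (-0.07 to 0.08), had an interval that includes 0. H2afx, at -0.34 (-0.62 to -0.07), and H2afy2, at -0.39 (-0.70 to -0.10), lay lower in replicate 2.

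**Figure D5:**
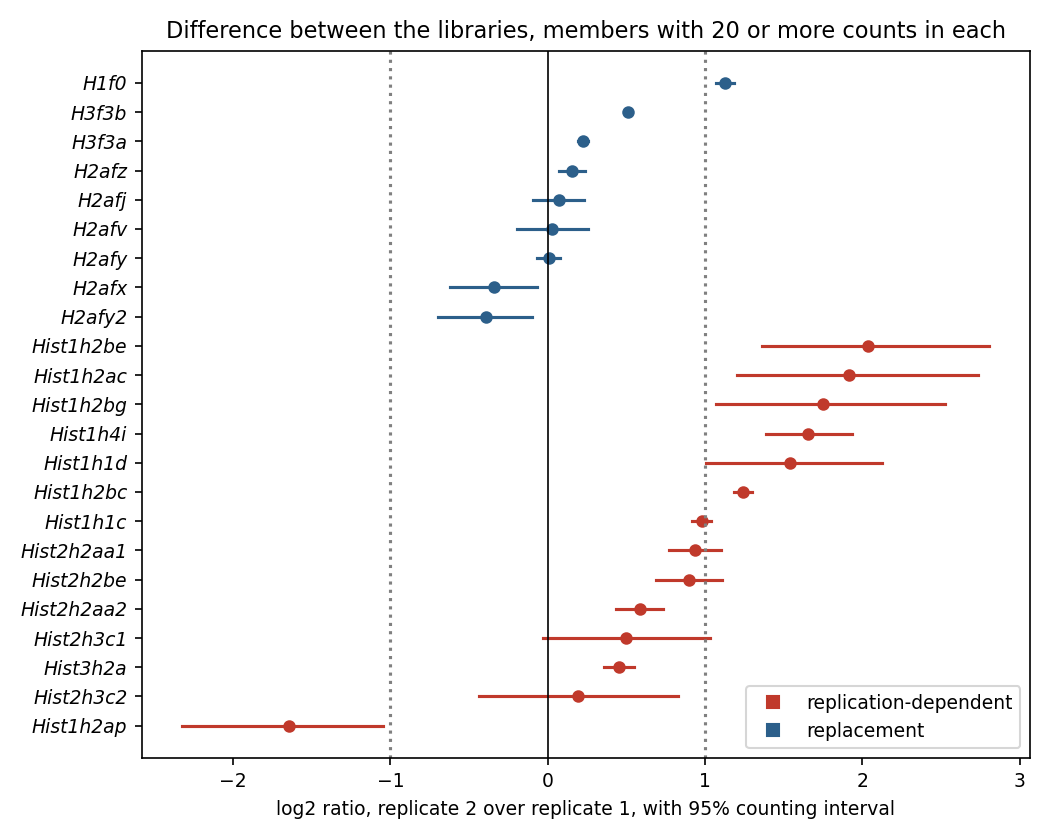
Log2 ratio of replicate 2 over replicate 1 with 95% counting intervals for the 23 histone genes with 20 or more counts in each library. Red is replication-dependent, blue is replacement, and dotted lines mark 2-fold; 13 of 14 red points lie above 0 and Hist1h2ap lies at -1.65.

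Other RNAs differed between the libraries alongside the histones, and their part in these ratios was not tested. Of 12 RNAs listed as made without a standard poly(A) tail 8 were detected, and their TPM summed to 14357 and 40297. Nearly all of that was the nuclear rRNA entry CT010467.1, at 13035 and 39282 TPM. Of the 8 with 20 counts in each library, 3 had a ratio above 0 and 5 below. Among the 5, Rn7s1 and Rn7s2 were listed with the same 516.5 and 134 counts, so they may not be separate signals. Malat1 lay higher in replicate 2, at 401 and 539 TPM, and the signal recognition particle RNA Rn7s2 lay lower, at 290 and 117 TPM. Of 24 genes of DNA replication and the cell cycle, 22 were lower in replicate 2, with a median ratio of -0.46. Of all 12471 genes with 20 counts, 46.4% were above 0, and their median was -0.02. Some of the 22 have intervals that include 0, such as Pcna at -0.03 (-0.08 to 0.01). Pcna, the replication clamp, stood at 243 and 231 TPM, Mcm6, a helicase subunit, at 52.1 and 39.0 TPM and Cdk1, the mitotic kinase, at 47.7 and 30.9 TPM. E2f2 was lowest at 0.91 and 1.17 TPM. Of 9 neutrophil markers 2 were detected, with summed TPM of 75.4 and 10.1. All 8 with any count had more counts in replicate 1. Those counts are not scaled, replicate 1 is the deeper library, and some are few, such as 4 and 2 for Prtn3. Ly6g was at 0 in both libraries, and Mpo and Elane were at 0 in replicate 2. All 6 stromal markers were detected, with summed TPM of 569 and 646. In RNA from whole cultures, fewer cells of a kind and less RNA per cell cannot be told apart.

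The genes that act on histone messages and proteins were nearly all detected. Of 16 measured genes for transcription and 3′ processing of histone messages 15 were detected, with median levels of 22.0 and 19.3 TPM and a median ratio of -0.18. None of these 15 with 20 counts was 2-fold apart between the libraries. Sympk, the scaffold of the cleavage complex, stood at 62.8 and 46.5 TPM, Cpsf3, its endonuclease, at 53.4 and 42.5 TPM and Lsm10, a subunit of the U7 particle, at 44.9 and 37.7 TPM. Zfp473, which also acts with that particle, was lowest at 0.35 and 0.23 TPM. Slbp, named after its value was seen, stood at 25.2 TPM in both libraries. Of 28 chaperone and exchange genes 28 were detected, with median levels of 21.7 and 19.6 TPM. Daxx, a chaperone of H3.3, stood highest at 174 and 196 TPM. Znhit1, a subunit of the H2A.Z exchange complex, was at 154 and 150 TPM and Nap1l1, a chaperone of H2A and H2B, at 91.7 and 97.5 TPM. Cenpa, the centromeric H3 variant and the lowest of the list, was at 3.77 and 4.90 TPM.

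Shared sequence limited how well single Hist genes could be told apart. The share of a gene's 31-base words, on either strand, that also occur in another annotated gene had a median of 61.9% over replication-dependent genes and 15.4% over replacement genes. It was at least 50% for 44 of 69 and 3 of 17. For Hist2h2aa1 and Hist2h2aa2 it was 100%. The alignment-derived table gave Hist2h2aa1 58.5 and 113 TPM and Hist2h2aa2 95.02 and 146 TPM. The FASTQ-derived table gave Hist2h2aa1 83.9 and 143 TPM and Hist2h2aa2 25.5 and 27.9 TPM, so the order of the genes reversed. Their summed TPM was 153 and 260 in the alignment-derived table and 109 and 171 in the FASTQ-derived table, while their summed counts were 1216 and 1489 and 1265 and 1524. Among the 19 replication-dependent genes with a mean of 1 TPM, 3 were 2-fold or more apart between the tables after centring on all genes: Hist2h2aa2, Hist2h3c1 and Hist1h2bj. Each had at least 50% of its words in another gene, as 12 of the 19 did. Hist2h3c1 was listed at 0 in the FASTQ-derived table. Hist3h2a shares 32.1% of its words with Trim17, which overlaps it on the same strand and stood at 0.14 and 0.44 TPM. The microRNA entry Gm44313, on the opposite strand of Hist3h2a, was listed at 90.6 and 0 TPM. The count behind that value is not given here, and few counts can give a short entry a high TPM. Vaultrc5, among the RNAs listed as made without a standard poly(A) tail, had 40.7 TPM from 2 counts in replicate 1. Hist2h2aa1 and Hist2h3c1 overlap the processed transcript Gm20634 on the same strand, which was listed at 6.85 and 9.03 TPM. Hist1h2be overlaps Hist1h1e, which stood at 0.35 and 0.53 TPM. Strand use in counting was not given in the sources used here, and reads of overlapping genes cannot be told apart.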

How the data were processed

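The authors deposited 3 tables per library, with expected counts, estimated counts and TPM from alignment-derived gene and transcript tables and a FASTQ-derived transcript table, for mm10 and GENCODE M21, per the file headers and the notes deposited with them. The posterior standard deviation of the count in the deposited tables was read but not printed. The software was not given in the sources used here. Both libraries form 1 group with n = 2, so no p-value was computed. Levels are TPM of the alignment-derived gene table. For ratios, expected counts were rounded and scaled by TMM (edgeR 4.0.16, R 4.3.3). Alternatives were total counts and the size factors of DESeq2 1.42.0, and the calculation was checked on simulated data. Genes were named by a rule: all replacement genes, and of the replication-dependent genes the 10 highest, the highest of each family, the 3 nearest each side of 1 TPM, the 3 highest and 3 lowest ratios and the 3 with the largest difference between tables; of other lists the 3 highest and the lowest. Members, lists and rules were chosen with earlier results of these data known. Intervals and floors cover counting error only, since reads are not independent molecules. T cell and B cell marker lists had 1 of 5 genes detected each.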

Additional observations from a re-analysis of the deposited data

Results flagged for a closer look

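H3f3a-ps2, 1 of the 4 entries left out by symbol, drew attention because it is outside the histone genes described here and yet had counts above 3 in both libraries. It was listed at 7.25 and 8.04 TPM in the alignment-derived gene table, from 30.97 and 23.54 counts. In the FASTQ-derived table it had 1.20 and 0 counts. Of its 31-base words 68.0% also occur in H3f3a transcripts.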

How the results depend on the processing

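Of 44 values under alternatives for the class sums, shares, detection counts, median ratios and stem-loop share, 38 stayed within the spread between the libraries (counts within 1.5-fold, median ratios within the counting interval). Another 10 could not move: 8 that leave 1 library out of a mean of 2, and 2 equal to the reported value by construction. The spread of 2 libraries is wide, at 743 ± 329 TPM for the replication-dependent sum, so even a large change can stay inside it. Without Hist1h2bc that sum was 472 TPM and still counted as inside. The count of 38 is therefore no measure of robustness. Of 36 named genes, 11 had a mean TPM in the FASTQ-derived table that differed by more than the spread between the libraries, among them Hist2h2aa2 at 26.7, H3f3a at 737 and Hist2h3c1 at 0. This count includes a shift common to all genes, with a median log2 ratio of -0.18 to the alignment-derived table. After centring on that median, H3f3a differed by 0.04 and Hist2h2aa2 by -2.00. The median ratios stayed with DESeq2 size factors, total counts, other count filters, another pseudocount and the FASTQ-derived table. In CPM, which is not divided by length, the replication-dependent sum was 411, the replacement sum 1645 and the replication-dependent share 19.4%. Both CPM sums counted as moved, although they are in another unit than the TPM sums. Without Hist1h2bc, an alternative chosen after seeing the data, the replication-dependent share of histone TPM was 19.2%, against 26.9% with it. Restricting to protein-coding genes or rescaling without CT010467.1, also chosen after, moved no value that far. At 5 TPM 8 replication-dependent genes were detected. With more than 50 bases after the stem-loop the share was 31.9%. Leaving out each replicate in turn gave 511 to 976 TPM for the replication-dependent sum, 1737 to 2158 TPM for the replacement sum, 22.7 to 31.1% for the share, 15 to 22 and 10 to 10 detected genes, and 57.3 to 60.1% past the stem-loop; the ratios need both libraries. No paired analysis was possible because there is 1 group. Genes under 20 counts gave no usable ratio.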
